A study of Mus musculus with 6 samples.

Results

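The 7 genes described here encode the parts of the interleukin-2 (IL-2) receptor and its direct signalling chain: the receptor chains Il2ra, Il2rb and Il2rg, the kinases Jak1 and Jak3, and the transcription factors Stat5a and Stat5b. They were taken by gene name from a deposited table of 49585 genes, where each name had 1 row, and all 7 were among the 13766 genes tested. Its values are FPKM, which divide the fragments of a gene by its length in kilobases and by library size, for 6 poly(A) RNA libraries of regulatory T cells (Tregs), a CD4 lineage defined by Foxp3 that holds immune responses in check. The cells came from spleens of C57BL/6 mice aged 7 weeks and were sorted as B220-negative, CD4+ and YFP+. All were cultured for 24 hours on plate-bound antibodies against CD3 and CD28, so no library shows unstimulated cells. There were 3 libraries of WT genotype and 3 of genotype Bach2-cKO. Bach2 encodes a transcriptional repressor. The labels name neither the Cre driver nor the deleted part of Bach2, nor whether the replicates are different animals. The p-values therefore speak to the scatter among these 6 libraries, and that scatter may be technical.

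IL-2 is bound by a receptor built from 3 proteins. The alpha chain (CD25, from Il2ra) raises the affinity for IL-2 and does not signal, while the beta chain (CD122, from Il2rb) and the common gamma chain (CD132, from Il2rg) carry the signal. JAK1 attaches to the beta chain and JAK3 to the gamma chain, and the activated kinases phosphorylate STAT5A and STAT5B, which enter the nucleus and act on target genes. Tregs hold high CD25, make little IL-2 of their own and depend on IL-2 from other cells. The beta chain also serves the IL-15 receptor, and the gamma chain serves the receptors for IL-4, IL-7, IL-9, IL-15 and IL-21. CD25 was among the sorting markers in the design text of the series, although not in the sample labels, so the alpha chain was part of how the cells were chosen before culture.

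On GRCm38, Il2ra lies at chr2:11642807-11693193 on the plus strand, Il2rg at chrX:101264378-101268255 and Jak1 at chr4:101152367-101265282 on the minus strand, and Jak3 at chr8:71676296-71690575 on the plus strand. Il2rb is listed at chr15:78480553-78495066 on the minus strand. Within the bounds of these genes, Il2rb excepted, lie other annotated genes on the same strand. Of those, Gm37881 (in Il2ra, up to 29.3 FPKM) and Insl3 (in Jak3, up to 23.2 FPKM) were above the filter on low values.

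The promoters of the alpha and gamma chain genes are shown because these receptor genes differed between the groups in opposite directions. RefSeq (GRCm38.p6) sequences were found for 6 of the 7 genes. Each line gives the 250 bases before the annotated start, 5′ to 3′ on the strand of the gene, at chr2:11642542-11642791 (plus strand) for Il2ra and at chrX:101268256-101268505 (minus strand) for Il2rg.
Il2ra: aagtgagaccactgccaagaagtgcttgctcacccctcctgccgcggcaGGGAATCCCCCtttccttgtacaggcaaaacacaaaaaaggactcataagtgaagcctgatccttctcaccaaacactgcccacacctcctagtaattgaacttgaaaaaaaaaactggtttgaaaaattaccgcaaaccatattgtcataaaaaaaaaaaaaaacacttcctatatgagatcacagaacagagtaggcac
Il2rg: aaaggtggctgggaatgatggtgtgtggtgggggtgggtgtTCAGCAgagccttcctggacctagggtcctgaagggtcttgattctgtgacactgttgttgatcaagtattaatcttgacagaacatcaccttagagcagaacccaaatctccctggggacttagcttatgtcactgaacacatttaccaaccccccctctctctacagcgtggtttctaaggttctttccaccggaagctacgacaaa
Capitals mark matches, on either strand, to 4 motifs. In Il2ra they mark 2 overlapping matches to the NF-kappaB consensus, the element bound by a family of factors that T cell receptor signals activate; it was added after the sequence was seen. Of 32851 RefSeq windows of this length, 7.25% hold that consensus. In Il2rg they mark TGCTGA, on the opposite strand, which is one arm of the MAF recognition element that BACH2 binds and which 16.1% of windows hold. The STAT5-type motif TTCNNNGAA, found in 7.02% of windows, and TGANTCA, the core shared by BACH2 and AP-1 sites and found in 6.75%, had 0 matches in both. A match describes letters in this window and does not show a factor bound there.

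The alpha chain gene rose, the gamma chain gene fell and the beta chain gene had no call. In WT libraries 1, 2 and 3, Il2ra stood at 237.7, 230.3 and 300.8 FPKM, and in Bach2-cKO libraries 1, 2 and 3 at 502.1, 485.7 and 458.3 FPKM. The lowest Bach2-cKO library lay well above the highest WT library, WT replicate 3. The log2 difference was 0.92 (SE 0.11, 95% interval 0.67 to 1.16), or 1.89-fold on the log2(FPKM + 1) scale, with a limma adjusted p = 0.00186. Il2rb, the chain shared with the IL-15 receptor, read 315.5, 252.9 and 304.6 FPKM in WT and 308.2, 274.0 and 281.8 in Bach2-cKO. The groups overlapped, and the log2 difference of -0.01 had an interval from -0.23 to 0.21 (adjusted p = 0.958), which leaves room for a change from 0.852-fold to 1.16-fold. Il2rg was tight within each group, at 212.1, 213.8 and 209.5 FPKM in WT and 173.1, 158.2 and 171.7 in Bach2-cKO. Its groups did not overlap and it fell by 0.34 on the log2 scale (SE 0.06, adjusted p = 0.00881), to 0.792 times the WT level. The call for Il2ra and that for Il2rg each held with any 1 library left out, with adjusted p of 0.00103 to 0.0125 and 0.0123 to 0.0399.

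**Figure D1:**
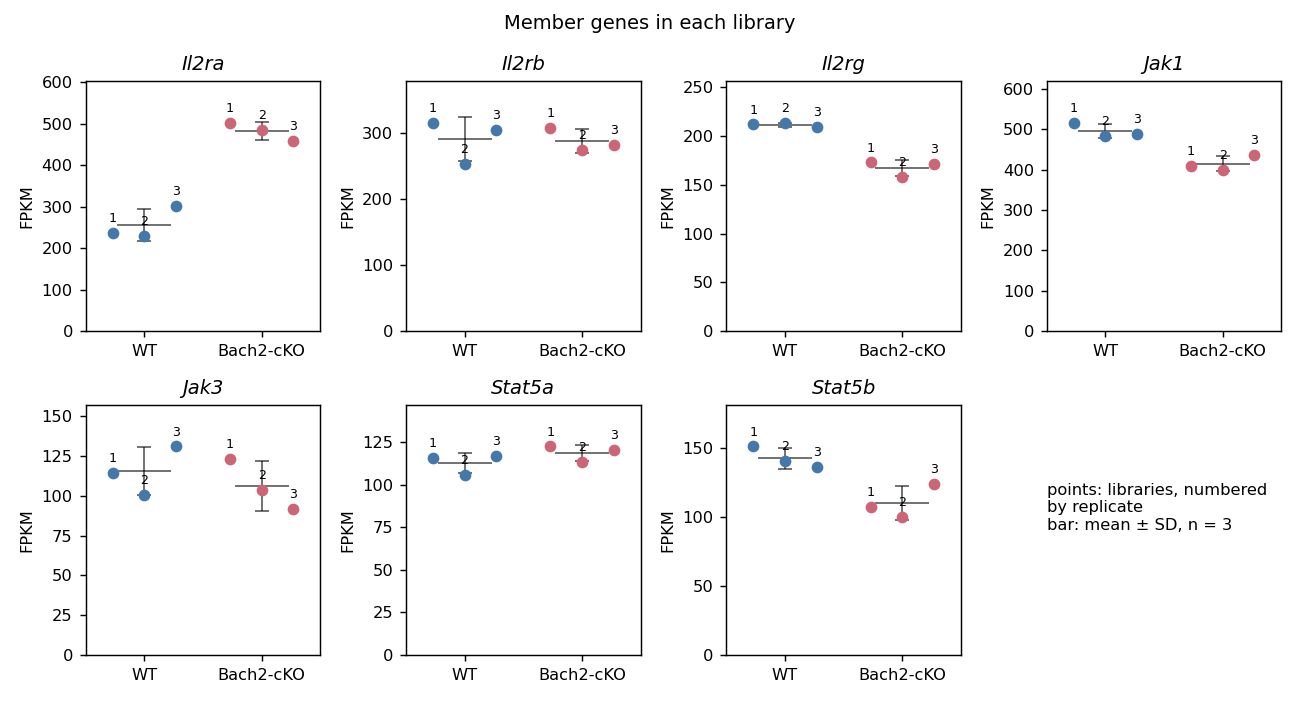
FPKM (vertical axes, from 0) of the 7 genes in each of the 3 WT and 3 Bach2-cKO libraries; points are libraries numbered by replicate, and the line and bar are the mean ± SD (n = 3). All 3 Bach2-cKO libraries lie above WT for Il2ra and below WT for Il2rg, Jak1 and Stat5b, while the groups overlap for Il2rb, Jak3 and Stat5a.

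Of the kinases, Jak1 fell and Jak3 had no call. Jak1, which serves the beta chain and many other cytokine receptors, was at 516.0, 483.5 and 488.0 FPKM in WT and 408.6, 400.0 and 435.7 in Bach2-cKO. The groups did not overlap, and the log2 difference was -0.26 (SE 0.06, limma adjusted p = 0.0332). That call was lost without any 1 library other than Bach2-cKO replicate 3, with an adjusted p of 0.110, 0.0704 and 0.0684 without WT replicates 1, 2 and 3, and of 0.112 and 0.129 without Bach2-cKO replicates 1 and 2. Jak3, the kinase of the gamma chain, spread widely within both groups, with 114.4, 100.7 and 131.0 FPKM in WT and 123.0, 103.8 and 91.7 in Bach2-cKO. Its log2 difference of -0.12 had an interval from -0.42 to 0.18 (adjusted p = 0.568), the widest of the 7.

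Of the STAT5 genes, Stat5b fell and Stat5a had no call. Stat5b read 151.3, 140.8 and 136.2 FPKM in WT and 107.4, 99.9 and 123.8 in Bach2-cKO. Bach2-cKO replicate 3 was the nearest to WT, yet still below all WT libraries, and the log2 difference was -0.37 (SE 0.09, limma adjusted p = 0.0288). Without WT replicates 1 and 2 in turn its adjusted p was 0.104 and 0.0732, and without Bach2-cKO replicates 1 and 2 it was 0.0893 and 0.0941. Stat5a stood at 115.5, 105.9 and 117.0 FPKM in WT and 122.4, 113.5 and 120.2 in Bach2-cKO, with overlapping groups (log2 difference 0.07, interval -0.07 to 0.22, adjusted p = 0.475). The genes lie side by side on chromosome 11 (GRCm38), Stat5b at 100780731 to 100850724 on the minus strand and Stat5a at 100859351 to 100885169 on the plus strand, and their products are close relatives. Of all 100-base windows of the longest coding Stat5a transcript, 6.99% occur unchanged in a Stat5b transcript, and of the 50-base windows 15.8% do. Reads from those stretches cannot be placed by sequence alone, so the levels of the pair are uncertain to that extent. The end of Stat5a also overlaps Stat3, a tested gene on the opposite strand, and the sources used here do not say whether counting used strand.

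In all, 1 member rose, 3 fell and 3 had no call. Of all tested genes 7.02% were called higher and 8.31% lower, 15.3% in either direction. The groups did not overlap for 4 of the 7, 1 higher and 3 lower in Bach2-cKO. Of all tested genes 35.6% did not overlap, 15.5% higher and 20.1% lower.

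**Figure D2:**
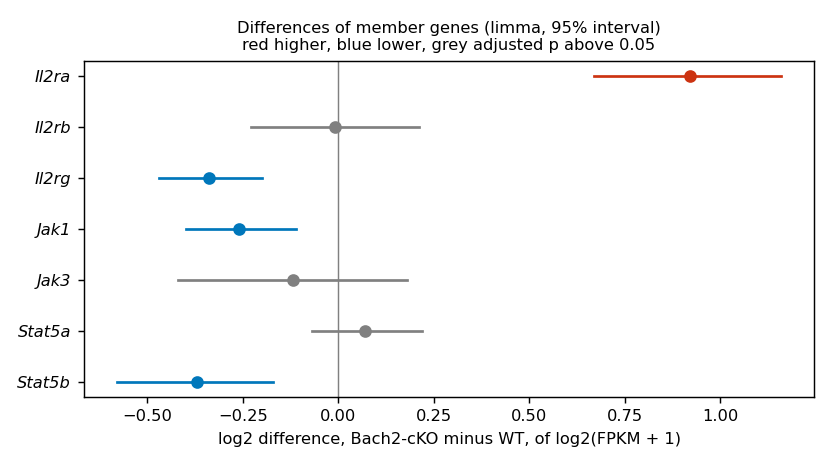
Log2 difference, Bach2-cKO minus WT, of log2(FPKM + 1) for the 7 genes, with points for the limma estimate and lines for its 95% interval. Il2ra lies at 0.92, Il2rg, Jak1 and Stat5b at -0.34, -0.26 and -0.37, and the intervals of Il2rb, Jak3 and Stat5a cross 0.

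Markers of T cells and of other cells moved between the same groups. The 13 T cell markers summed to 3055.9 to 3348.6 FPKM in WT and to 2375.3 to 2811.4 in Bach2-cKO, with 4 lower, 0 higher and a median log2 difference of -0.27. They did not move alike, with log2 differences from -0.67 (Cd5) to 0.19 (Cd247, higher without overlap and with no call). The 10 B cell markers were far from 0 in spite of the B220 gate, summing to 1024.3 to 1436.4 FPKM in WT and 1494.4 to 1940.5 in Bach2-cKO, with 4 higher and 0 lower. The plasma cell markers summed to 89.7 to 102.6 and 168.1 to 246.3 FPKM, with 3 of 4 tested higher. The CD8 T cell markers Cd8a and Cd8b1 summed to 40.2 to 44.2 and 53.8 to 99.3 FPKM and were both higher. NK cell markers other than Eomes, and myeloid markers other than Lyz2 and Zbtb46, were at most 1.29 FPKM. Eomes was at most 8.38 FPKM in WT and at least 8.71 in Bach2-cKO, a log2 difference of 0.74 with no call. Ncr1 and Adgre1, both under the filter, were at most 0.416 and 0.589 FPKM in WT. In Bach2-cKO these genes were at least 0.888 and 0.963 FPKM, higher without overlap. The other NK and myeloid markers overlapped between the groups, with Lyz2 up to 5.63 and Zbtb46 up to 12.4 FPKM. Itgam has 2 rows, of which the first was used, at no more than 0.0545 FPKM in any library. The other row held 0.273 to 0.528 FPKM, and the overlap given above does not cover it. The part of these cells in the differences of the members was not tested beyond the models given next. Foxp3, which defines Tregs, was at 127.3, 107.6 and 113.2 FPKM in WT and 111.8, 104.2 and 153.5 in Bach2-cKO, and of 7 Treg markers 0 rose and 2 fell, Ikzf4 and Lrrc32. Bach2 itself read 99.4 to 112.0 FPKM in WT and 88.9 to 120.8 in the libraries labelled Bach2-cKO (adjusted p = 0.812), so the labels could not be checked by it. In bulk RNA, fewer cells of a type and less RNA per cell cannot be told apart.

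Set against the T cell markers, the falls of the members were not called, and Jak1 changed sign. With each library scaled by the mean log2 level of the 13 T cell markers, Il2ra was higher by 1.18 on the log2 scale (SE 0.12, adjusted p = 0.000287). On this scale Il2rg differed by -0.07 (adjusted p = 0.550), Stat5b by -0.11 (adjusted p = 0.386) and Jak1 by 0.01 (adjusted p = 0.970). Stat5a was called higher there, by 0.34 (adjusted p = 0.0242), and Il2rb and Jak3 stood at 0.25 and 0.14 with no call. This scaling moved the median of all tested genes from -0.0172 to 0.245 and called 3383 genes higher and 433 lower, against 967 and 1144 with FPKM as deposited. Il2rg, Jak1, Jak3 and Stat5b lay below that shifted median, and Il2ra and Stat5a above it. When the mean B cell marker level was added to the model, 0 members were called, and the estimate for Il2ra was 1.06 with an SE of 0.19 (adjusted p = 0.0689). That model called 43 genes higher and 54 lower in all, against 967 and 1144 without that level. The B cell marker level did not overlap between the groups.

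Ratios between members within a library do not depend on the library total or on any scaling of it. In bulk RNA they still depend on the mix of cells, and markers of B cells, plasma cells and CD8 T cells were among those called higher. The part of that mix in the ratios, and in the shares of the receptor chains below, was not tested. The alpha to beta chain ratio, Il2ra:Il2rb in FPKM, was 0.754, 0.911 and 0.987 in WT libraries and 1.63, 1.77 and 1.63 in Bach2-cKO libraries. It was below 1 in all 3 WT libraries and above 1 in all 3 Bach2-cKO libraries, 1.91 times as high by geometric means. The alpha to gamma chain ratio, Il2ra:Il2rg, went from 1.12, 1.08 and 1.44 to 2.90, 3.07 and 2.67, which is 2.39 times as high and the widest shift of the 5 ratios examined. Between the signalling chains, Il2rb:Il2rg was 1.49, 1.18 and 1.45 in WT and 1.78, 1.73 and 1.64 in Bach2-cKO, 1.26 times as high without overlap. Stat5a:Stat5b was 0.763, 0.752 and 0.859 in WT and 1.14, 1.14 and 0.971 in Bach2-cKO, a 1.37-fold shift without overlap. Jak1:Jak3 overlapped between the groups, at 4.51, 4.80 and 3.73 in WT and 3.32, 3.85 and 4.75 in Bach2-cKO. An exact two-sided permutation test gave p = 0.100 for each of the 4 ratios without overlap, the smallest that 3 against 3 libraries allow, and p = 0.60 for Jak1:Jak3. Adjusted over the 5 ratios these became 0.125 and 0.60, so none passed a threshold of 0.05.

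**Figure D3:**
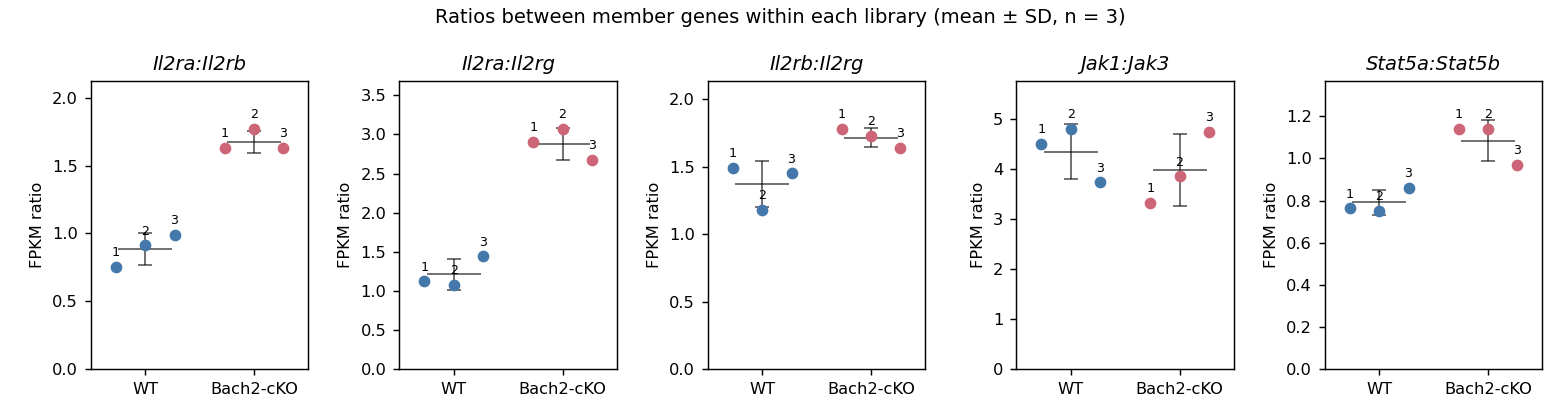
Ratio of the FPKM of 2 member genes (vertical axes, from 0) within each library for the 3 receptor chain pairs, the JAK pair and the STAT5 pair; points are libraries numbered by replicate, with the mean ± SD (n = 3). The groups are apart for every pair except Jak1:Jak3.

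Of the summed FPKM of the 3 receptor chains, Il2ra held 31.1% to 36.9% in WT and 50.3% to 52.9% in Bach2-cKO libraries. Il2rb went from 36.3% to 41.2% of the sum in WT to 29.9% to 31.3%, and Il2rg from 25.7% to 30.7% to 17.2% to 18.8%. In every WT library the order was Il2rb, Il2ra, Il2rg, and in every Bach2-cKO library Il2ra, Il2rb, Il2rg. The lead of Il2rb over Il2ra in WT was within the spread, 291.0 ± 33.4 against 256.3 ± 38.7 FPKM (SD, n = 3).

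The order of levels depends on the gene length behind FPKM, whereas the differences between groups do not. For 6 of the 7 genes that length equals the mean over all annotated transcripts of the gene in GENCODE M21, short fragments included, and for Il2rb it was 2293 bases where the mean is 3045. Jak1 shows what this does: it has 8 annotated transcripts with a mean of 1285 bases, while its longest coding transcript has 4906 bases. On the deposited scale Jak1 was the highest of the 7 in WT, at 495.8 ± 17.6 FPKM, and 4.35 ± 0.556 times Jak3. With the length of the longest coding transcript in its place, Jak1 stood at 129.9 ± 4.61, below Il2rb (159.1 ± 18.3) and between Il2rg (131.9 ± 1.34) and Il2ra (114.8 ± 17.3), and at 1.31 ± 0.168 times Jak3 (SD, n = 3). The levels of Il2rg, Jak1 and Il2ra on that scale did not differ beyond their spread in WT. Stat5b stood at 100.4 ± 5.45 and the Jak3 libraries between 87.3 and 113.5, both overlapping the libraries of Il2ra (103.2 to 134.7). Stat5a was last, at 70.4 ± 3.74. In Bach2-cKO, Il2ra led at 215.9 ± 9.91, ahead of Il2rb at 157.5 ± 9.80 and of Jak1 at 108.6 ± 4.89 and Il2rg at 104.4 ± 5.14, the last pair within their spread.

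On this longest-transcript scale, chosen after the data were seen, Il2rg exceeded Il2ra in WT replicates 1 and 2 and not in replicate 3, and the Il2ra:Il2rg ratio in WT was 0.871 ± 0.141 where deposited FPKM gave 1.21 ± 0.196. The Il2ra:Il2rb ratio went from 0.724 ± 0.0977 in WT to 1.37 ± 0.0686 in Bach2-cKO. With all exons of a gene joined as its length, that ratio was 0.572 ± 0.0771 and 1.08 ± 0.0541. Under all 3 lengths Il2rb was above Il2ra in the 3 WT libraries and below it in the 3 Bach2-cKO libraries. The mean Stat5a:Stat5b ratio was above 1 in Bach2-cKO on the deposited scale only, at 1.08 ± 0.0967, against 0.960 ± 0.0858 per longest coding transcript and 0.556 ± 0.0497 per joined exons.

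**Figure D4:**
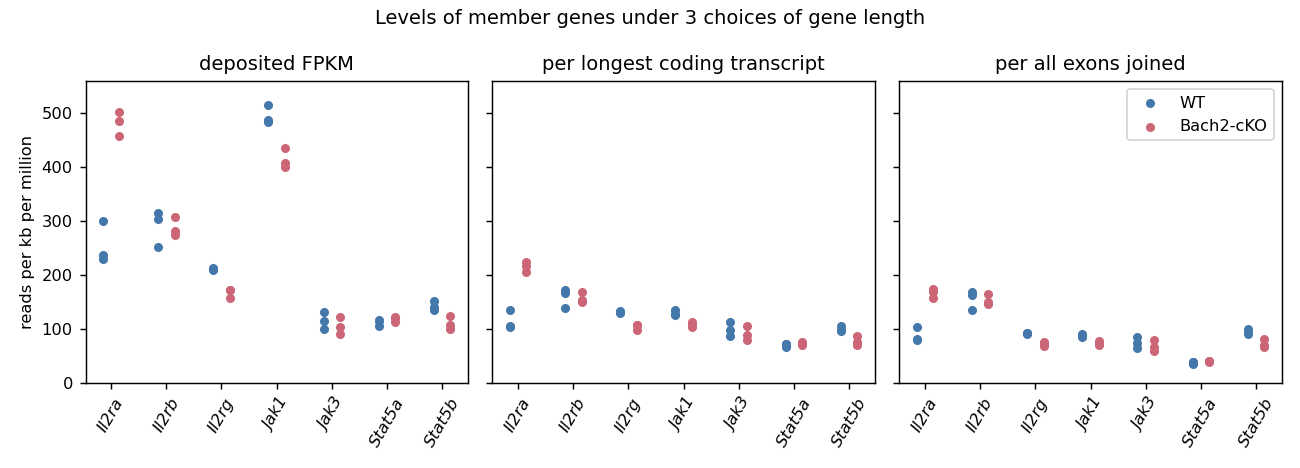
Level of each gene in reads per kilobase and library size (vertical axis, from 0) with the length behind the deposited FPKM, the longest coding transcript, or all exons joined; points are the 3 libraries of each group. Jak1 leads in WT on the first scale only, and Il2ra is the highest receptor chain in Bach2-cKO on all 3.

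These levels rest on deep counts. Reads recovered from the steps of the FPKM values ranged from 4961 (Il2rg, Bach2-cKO replicate 3) to 31743 (Il2rb, WT replicate 1) per member and library, in libraries of 27697735 to 43884431 reads. Counting error alone is thus at most 1.42% of a value. All 7 members lay between the 91.9th and the 98.7th percentile of mean FPKM among tested genes.

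Among ligands and related receptors, Il4ra alone was called, where 15.3% of all tested genes were called in either direction. Il2 was listed at 0.473 to 0.896 FPKM in WT and 0.818 to 1.01 in Bach2-cKO and Il7 at no more than 0.116, both under the filter, so these libraries held almost no message for the cytokine itself. Il15 and Il15ra, the ligand and private chain of IL-15, had no call. Of the 4 other receptors that use the gamma chain, Il4ra rose, from 136.6, 123.0 and 157.2 FPKM to 205.8, 223.7 and 184.1 (log2 difference 0.56, adjusted p = 0.0130), a call lost without WT replicate 1, with no filter, with a replicate block and with the B cell marker level in the model. Il7r, Il9r and Il21r had log2 differences of 0.35, 0.10 and 0.00 with no call.

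Of the 7 other JAK and STAT genes, Jak2 rose by 0.26 on the log2 scale (adjusted p = 0.0280) and Stat6, the STAT of the IL-4 receptor, fell by 0.25 (adjusted p = 0.0418). The other 5 had no call, where 7.02% of all tested genes were called higher and 8.31% lower. Both calls were lost without any 1 library other than Bach2-cKO replicate 3, with no filter on low values, with a replicate block and with the B cell marker level in the model, and that of Stat6 also with median-ratio scaling. Relative to T cell markers 4 of the 7 were higher and 0 lower, where that scaling calls 3383 of all 13766 tested genes higher and 433 lower. Of 29 genes for adaptors and the RAS and PI3K arms that the receptor also feeds, 1 rose, 4 fell and 24 had no call. Grb2, the adaptor that brings in SOS, rose by 0.33. Among those that fell, the kinase genes Lck and Fyn fell by 0.35 and 0.32 and Pik3r1, a regulatory subunit of PI3K, by 0.39, with limma adjusted p from 0.00904 to 0.0151. Grb2 lost its call without any library but Bach2-cKO replicate 3, and the number that fell was 1 without WT replicate 1 and 2 without Bach2-cKO replicate 1 or 2. The share called is near the 15.3% of all tested genes. Relative to T cell markers, 14 of the 29 were higher and 0 lower, where that scaling calls 3383 of all 13766 tested genes higher.

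The inhibitors of the pathway that changed all rose. Of 11 tested, 3 rose, 0 fell and 8 had no call, with a median log2 difference of 0.05 against -0.02 over all tested genes. The shares over all tested genes were 7.02% higher and 8.31% lower. Socs1, which blocks JAK kinase activity, went from 129.3, 117.9 and 110.7 FPKM in WT to 253.9, 263.5 and 201.8 in Bach2-cKO (log2 difference 0.99, SE 0.11, adjusted p = 0.00159). Cish, a feedback inhibitor that STAT5 itself switches on, went from 49.8, 55.0 and 56.9 to 78.7, 98.8 and 80.0 FPKM (0.66, SE 0.10, adjusted p = 0.00551). Socs2, also a STAT5 target, went from 56.4, 67.1 and 68.3 to 98.5, 87.7 and 83.7 FPKM (0.49, SE 0.09, adjusted p = 0.0136). For all 3 genes the groups did not overlap. With no filter on low values or with a replicate block, 2 inhibitors were called higher. Relative to T cell markers the number was 4, where that scaling calls 3383 of all 13766 tested genes higher. With the B cell marker level in the model 0 inhibitors were called, where 43 of all tested genes were higher and 54 lower. Socs3, better known as a brake on IL-6 receptors, varied widely in both groups (adjusted p = 0.934), and the phosphatase genes Ptpn1, Ptpn2 and Ptpn6 had no call.

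Genes known as STAT5 targets moved both ways on the deposited scale. Of 17 genes that STAT5 raises, 5 rose, 2 fell and 10 had no call, with a median log2 difference of 0.17. Over all tested genes 7.02% were higher and 8.31% lower. The list shares Cish, Socs1, Socs2 and Socs3 with the inhibitors, and the 5 that rose were Socs1, Cish, Socs2, Prdm1 and Gzmb. Relative to T cell markers 9 of the 17 were higher and 1 lower. That scaling calls 3383 of all 13766 tested genes higher and 433 lower. With the B cell marker level in the model 1 was higher and 0 lower, where 43 of all tested genes were higher and 54 lower. Prdm1, which encodes BLIMP-1 and is also a plasma cell gene, rose by 1.48 on the log2 scale, with at most 16.6 FPKM in WT and at least 34.9 in Bach2-cKO. Gzmb, which encodes granzyme B and is also a gene of CD8 T cells, read 252.6, 191.2 and 210.6 FPKM in WT and 1167.1, 813.5 and 384.9 in Bach2-cKO (log2 difference 1.72, SE 0.36, adjusted p = 0.0180). Its 3 Bach2-cKO values follow the order of Cd8a in those libraries, which read 46.4, 37.8 and 25.2 FPKM; the part of CD8 T cells in the Gzmb difference was not tested. The survival genes Bcl2 and Mcl1 fell by 0.68 and 0.23, and without WT replicate 1, 2 or 3 or Bach2-cKO replicate 2 only 1 gene of the list fell. With no filter 3 genes of the list were called higher and 1 lower, and with a replicate block 4 and 1. Without WT replicate 1 or Bach2-cKO replicate 2, 4 were called higher. The number was 6 with median-ratio scaling and 7 without Bach2-cKO replicate 3. Pim1, Pim2, Bcl2l1, Myc, Ccnd2, Ccnd3, Osm, Lta and Socs3 had no call, nor had Foxp3.

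Of 4 genes that IL-2 signalling is known to lower, Tcf7, which encodes TCF-1, fell by 1.37 and Il6ra, the IL-6 receptor, by 1.24 on the log2 scale. Bcl6 and Il7r stood at 0.22 and 0.35 with no call, where 7.02% of all tested genes were called higher and 8.31% lower. Both falls were called under all 14 alternatives, relative to T cell markers and with the B cell level in the model included. Relative to T cell markers, Bcl6 and Il7r were called higher, where that scaling calls 3383 of all 13766 tested genes higher and 433 lower.

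**Figure D5:**
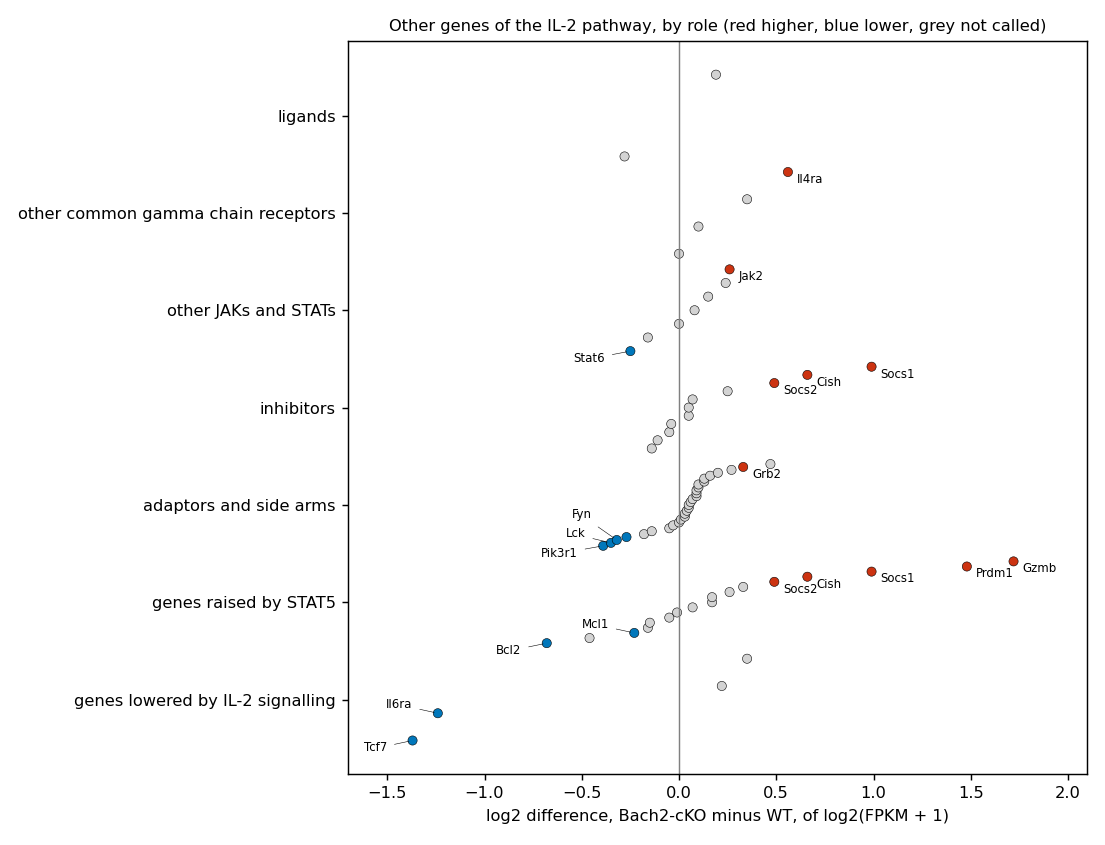
Log2 difference, Bach2-cKO minus WT, of log2(FPKM + 1) for tested genes in 7 lists by role; each point is a gene, labelled where the limma adjusted p is under 0.05 (of lower genes, at most the 3 with the lowest values in a list), and Il7r, Cish, Socs1, Socs2 and Socs3 stand in 2 lists. The inhibitors that passed lie at 0.49 to 0.99, and the targets that passed range from -0.68 to 1.72.

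The genes whose profile over the 6 libraries was most like that of Il2ra were Arl4c, Mapre2, Nabp1, Maf and Malt1. Likeness was the Euclidean distance between centred log2(FPKM + 1) profiles, over the 5698 other named genes whose mean reached 20 FPKM, and these 5 lay at 0.169 to 0.179. Maf, a transcription factor of effector T cells, read 41.2, 36.8 and 50.8 FPKM in WT and 80.5, 81.0 and 84.9 in Bach2-cKO. Malt1, part of the complex that links the antigen receptor to NF-kappaB, read 39.0, 38.4 and 45.4 and then 74.5, 72.3 and 69.6 FPKM. In all 5, as in Il2ra, WT replicate 3 was the highest of the WT libraries, an order that choosing by likeness to Il2ra favours. The nearest to Il2rg were Rbm45, Gimap1, Rcan3, Cyth4 and Acot9, at 0.0432 to 0.0782. Gimap1, a GTPase of lymphocytes, read 216.0, 220.9 and 220.8 FPKM in WT and 181.2, 167.4 and 182.7 in Bach2-cKO. Profiles over 6 libraries in 2 groups are dominated by the group difference.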

How the data were processed

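The authors deposited FPKM per gene, in 1 file per library and 1 table of the series, whose columns were equal for all 6 libraries. HISAT2 2.0.5, featureCounts 1.5.0-p3 and build mm9 are given per the submitters' processing notes. No source used here gives filters, annotation or strand use. Of 49326 gene IDs in GENCODE M21 (GRCm38), 91.5% have the position of the table, so positions are given as GRCm38.

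Whole reads were recovered from the FPKM steps (tolerance 0.001 reads), for 24193 of 28530 genes above 0 at the rounded mean length of their GENCODE M21 transcripts and for the rest at another length. Replicate pairs differed beyond sampling noise (chi-square of 9.70 to 21.8 per degree of freedom), so each library counted as 1 sample.

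Genes with at least 1 FPKM in 3 libraries were tested on log2(FPKM + 1) with limma 3.58.1 (intensity trend, R 4.3.3), two-sided, with Benjamini-Hochberg adjustment over all 13766 genes and a threshold of 0.05. "Called", "rose" and "fell" mean past it. The fit was checked on simulated data. Ratios were tested by exact permutation (SciPy 1.17.1). Figures used Matplotlib 3.10.9.

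Named were all 7 members, called genes of each list (at most 6), and the 5 nearest profiles to Il2ra and Il2rg. Some list genes are counted but not reported here by name. Uncalled list genes, Foxp3, Bach2 and Cd8a were named after their values were seen. Members and lists were chosen with earlier results of these data known. Alternatives were another pseudocount, 2 other filters, median-ratio and T cell marker scaling, a B cell score, limma-voom, a replicate block, leaving out each library and, added later, other gene lengths.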

Additional observations from a re-analysis of the deposited data

How the results depend on the processing

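Il2ra was higher under all 14 alternatives (0.85 to 1.18 on the log2 scale) and past the threshold in 13, the exception being the B cell score as a covariate (1.06, adjusted p = 0.0689). The B cell score does not overlap between the groups, and with it 43 genes were higher and 54 lower in all. There Il2rg was at -0.28, Jak1 at -0.18, Stat5b at -0.26, Il2rb at 0.29 and Jak3 at 0.16, and 0 members were called higher and 0 lower. With T cell marker scaling Il2rg was at -0.07, Jak1 at 0.01, Stat5b at -0.11, Il2rb at 0.25, Jak3 at 0.14 and Stat5a at 0.34, with 2 members higher and 0 lower. In all, that scaling called 3383 genes higher and 433 lower. With no filter, which tests 28530 genes, Jak1 (-0.26, adjusted p = 0.0946) and Stat5b (-0.37, adjusted p = 0.0871) were not called, 1 member was lower, and in all 501 genes were higher and 681 lower. Median-ratio scaling put Il2rb at 0.02.

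Same-numbered libraries did not deviate together (correlations -0.0526, 0.00578 and -0.215), and no WT library correlated best with its own number. With a replicate block 625 genes were higher and 657 lower, Jak1 stood at -0.26 (adjusted p = 0.109), Stat5b at -0.37 (adjusted p = 0.0693) and 1 member was lower; the ratios had p of at least 0.25, the smallest for 3 pairs.

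With 1 library left out, Il2rb ranged from -0.11 to 0.05, Jak1 from -0.29 to -0.23, Stat5b from -0.46 to -0.30, and members called lower from 1 to 3. By other gene lengths the log2 Il2ra:Il2rg level ratio in WT was -0.21 (longest coding transcript) and -0.07 (all exons joined), and the log2 Stat5a:Stat5b level ratio in Bach2-cKO was -0.06 and -0.85. The causes were not tested. Counting error at the lowest reads of a member was at most 1.42%, so depth limits these values little.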
